A study of Drosophila melanogaster with 3 samples.

Results

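The sites described are the 500 strongest ChIP-seq peaks of Sp1-GFP in whole Drosophila melanogaster larvae. They were chosen by signal alone: they are the 500 peaks with the highest pooled signal value in the authors' optimal set, which holds 7501 others, and their signal is therefore given as a description only. The chromatin came from larvae of the transgenic line Sp1-GFP, which makes Sp1 with green fluorescent protein fused to its C-terminal end. Sonicated chromatin was recovered with an antibody to that tag (ChIP-seq). Whole animals of both sexes were collected at the wandering stage of the third instar, with no age given, so that the tissue in which a site was bound is unknown. There was 1 group of 3 biological replicates, each a separate biosample of the same line, and the replicates were called against 1 control alignment. The labels list no other genotype or stage and no untagged line, and the comparisons below are therefore between the 500 and the other 7501 optimal peaks of the same larvae.

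Sp1 belongs to the Sp/KLF family of zinc finger transcription factors, and in flies it acts with its relative btd in the growth of legs and antennae. Members of the family in mammals bind G-rich sequences known as GC boxes and CACCC boxes, often close to transcription start sites (TSSs). A ChIP-seq peak marks a stretch of chromatin recovered with the protein, which can be bound directly or through a partner, and its summit is the point of highest recovery.

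Sequences at some of the strongest members are shown first, as examples of the low G+C at the summit described below. Each is 241 bases of the reference genome (RefSeq Release 6, the assembly dm6) centred on the summit, and the capitals mark the 50 bases on either side of it together with the summit base. Promoter members are written in the direction of the gene's transcription and distal ones on the plus strand. The first set lies at promoters: Gapdh2 (chrX:15867863-15868103, plus strand), which encodes a glycolytic enzyme, CG18549 (chr3R:12449051-12449291, plus strand), and Art3, an arginine methyltransferase gene (chr3R:15229406-15229646, minus strand).
Gapdh2: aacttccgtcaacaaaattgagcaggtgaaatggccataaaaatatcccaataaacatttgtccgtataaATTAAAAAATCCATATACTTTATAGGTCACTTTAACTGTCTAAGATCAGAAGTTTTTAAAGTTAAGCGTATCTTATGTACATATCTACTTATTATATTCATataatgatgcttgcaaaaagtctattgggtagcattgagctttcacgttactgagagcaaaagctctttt
CG18549: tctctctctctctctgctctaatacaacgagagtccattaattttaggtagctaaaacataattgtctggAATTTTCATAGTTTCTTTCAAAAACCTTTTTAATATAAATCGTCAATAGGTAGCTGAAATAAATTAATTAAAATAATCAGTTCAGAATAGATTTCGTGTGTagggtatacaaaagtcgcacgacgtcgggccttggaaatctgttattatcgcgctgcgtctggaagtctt
Art3: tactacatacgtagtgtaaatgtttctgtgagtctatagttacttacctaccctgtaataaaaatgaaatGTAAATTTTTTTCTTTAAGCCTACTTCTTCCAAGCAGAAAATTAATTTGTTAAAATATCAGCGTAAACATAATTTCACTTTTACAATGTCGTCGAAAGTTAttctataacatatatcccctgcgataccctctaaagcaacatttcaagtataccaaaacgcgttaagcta
G+C made up 23.8% of the capitals at Gapdh2, 22.8% at CG18549 and 26.7% at Art3. The lower-case flanks held 35.7%, 43.6% and 33.6%, in the same order. At all 3 promoters the summit therefore lay in a stretch poorer in G+C than its flanks. These ranked 2, 6 and 14, and other promoter members stronger than Art3 are not printed. Within 100 bp of the summit, those held 36.8% G+C at CG14100, 45.3% at Ugalt and 40.3% at CG1888. The values were 30.3% at CG11309, 27.4% at Fkbp14 and 26.4% at mRpL41. The mean of the other peaks was 37.1%, so the printed windows do not stand for every strong promoter.

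Distal members, with the summit farther than 500 bp from any protein-coding TSS, had the same layout. The second set lies in an intron of CG11050 (chr2L:6612591-6612831), in an intron of CG32772 (chrX:4910258-4910498), in an intron of ush (chr2L:480951-481191), the gene of a Friend of GATA cofactor, and in a transcribed stretch outside protein-coding genes near CG4004 (chrX:12751216-12751456).
CG11050: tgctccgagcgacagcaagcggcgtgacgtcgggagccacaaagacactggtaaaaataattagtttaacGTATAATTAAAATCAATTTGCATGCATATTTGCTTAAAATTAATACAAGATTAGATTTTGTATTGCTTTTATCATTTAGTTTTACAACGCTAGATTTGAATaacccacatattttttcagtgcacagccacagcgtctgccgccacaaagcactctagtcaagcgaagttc
CG32772: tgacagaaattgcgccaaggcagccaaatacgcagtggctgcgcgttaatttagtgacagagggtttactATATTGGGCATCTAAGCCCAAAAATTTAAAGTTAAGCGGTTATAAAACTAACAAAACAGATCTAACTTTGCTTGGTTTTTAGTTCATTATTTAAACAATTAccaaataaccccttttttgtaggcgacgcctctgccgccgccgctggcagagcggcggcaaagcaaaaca
ush: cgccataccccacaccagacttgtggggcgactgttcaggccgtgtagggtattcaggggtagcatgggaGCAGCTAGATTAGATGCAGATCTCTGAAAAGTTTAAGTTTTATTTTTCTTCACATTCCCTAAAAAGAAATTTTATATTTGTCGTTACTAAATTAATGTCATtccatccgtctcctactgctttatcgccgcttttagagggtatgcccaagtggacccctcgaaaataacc
CG4004: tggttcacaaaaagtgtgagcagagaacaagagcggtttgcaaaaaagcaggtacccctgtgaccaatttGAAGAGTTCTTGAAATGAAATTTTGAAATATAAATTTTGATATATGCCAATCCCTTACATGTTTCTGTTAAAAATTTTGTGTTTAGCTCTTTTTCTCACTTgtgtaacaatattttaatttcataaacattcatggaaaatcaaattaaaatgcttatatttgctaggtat
The capitals held 21.8% G+C at CG11050, 26.7% at CG32772, 26.7% at ush and 25.7% at CG4004. Their flanks held 50%, 54.3%, 55.7% and 32.9%, in that order. The contrast between centre and flank was widest at the 3 intronic sites.

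The last set shows promoter words that were rarer in the 500. The DNA replication-related element (DRE), TATCGATA, and the motif of the promoter factor M1BP, GGTCACACT, mark many housekeeping promoters in flies. The windows are 121 bases around the summit, with only the word in capitals. The DRE is shown at eEF1gamma, a translation elongation factor gene (member of the 500, chr3R:29220076-29220196, plus strand), and at the ribosomal protein gene RpL28 (not a member, chr3L:3222943-3223063, minus strand), and the M1BP motif at Adsl, a purine synthesis gene (not a member, chr3R:17021118-17021238, minus strand).
eEF1gamma: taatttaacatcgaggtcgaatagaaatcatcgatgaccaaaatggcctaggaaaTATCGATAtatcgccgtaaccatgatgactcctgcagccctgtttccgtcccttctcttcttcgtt
RpL28: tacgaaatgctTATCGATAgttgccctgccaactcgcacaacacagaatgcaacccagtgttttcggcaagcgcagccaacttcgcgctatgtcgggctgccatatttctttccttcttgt
Adsl: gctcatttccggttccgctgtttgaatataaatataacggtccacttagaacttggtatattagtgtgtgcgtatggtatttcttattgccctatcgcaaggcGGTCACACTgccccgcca
The eEF1gamma member ranked 441, with a pooled signal of 1967, whereas RpL28 ranked 699, with 1519, and Adsl 2681, with 573. G+C made up 43.0% of the eEF1gamma window, against 49.6% at RpL28 and 45.5% at Adsl.

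Read depth per library is unknown, because the deposited lists hold no counts. Each of the 3 replicate lists, like the pooled one, was 30000 lines long, so list length carries no information, and the optimal set was made of the strongest lines of the pooled list. Signal values have no stated scaling between lists. Between replicates they are given as the spread of a site and as ratios, and a difference in level is not read as one in binding. All 500 members, and all 7501 other peaks, stood at the ceiling of the deposited -log10 q value, which therefore ranked nothing.

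A signal in whole animals pools all cell types, so that fewer bound cells and less binding per cell cannot be told apart. Pooled signal ran from 11363 at CG14100 to 1840 at ex, with a median of 2567 in the 500, against 393 in the other optimal peaks. The 500 held 28.3% of the summed signal of the optimal set. They fell into 489 distinct intervals, of which 11 held a pair of members, and 107 members had another member within 5000 bp. Just inside the threshold lay drn (1846), Vps33B (1842), CG34056 (1841), CG1640 (1840) and a summit in ex (1840). Just outside lay oys (1838), CG32176 (1836), Tlk (1835), CG6204 (1834) and fz (1831). The order was continuous there, and the boundary separates no classes.

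Replicates shared most of these sites. A peak with its summit within 100 bp was present in all 3 replicate lists for 494 members, and the other 6 were present in 2 lists. Looked up by rank, 357 members (71.4%, Wilson 95% interval 67.3 to 75.2, counting error over sites only) were among the 500 strongest peaks of every replicate. Since the pooled signal comes from the same 3 libraries, part of that agreement follows from the choice. Each replicate's own 500 were therefore looked up in another replicate, which took no part in choosing them. There, 80.7% on average (74.8% to 86.6% over the 6 ordered pairs) were among the other replicate's 500, and 98.8% to 100% were among its strongest peaks up to the size of the optimal set. The pairs of replicates 1 and 2 gave 86.6%, and those of replicates 2 and 3 gave 74.8%.

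**Figure D1:**
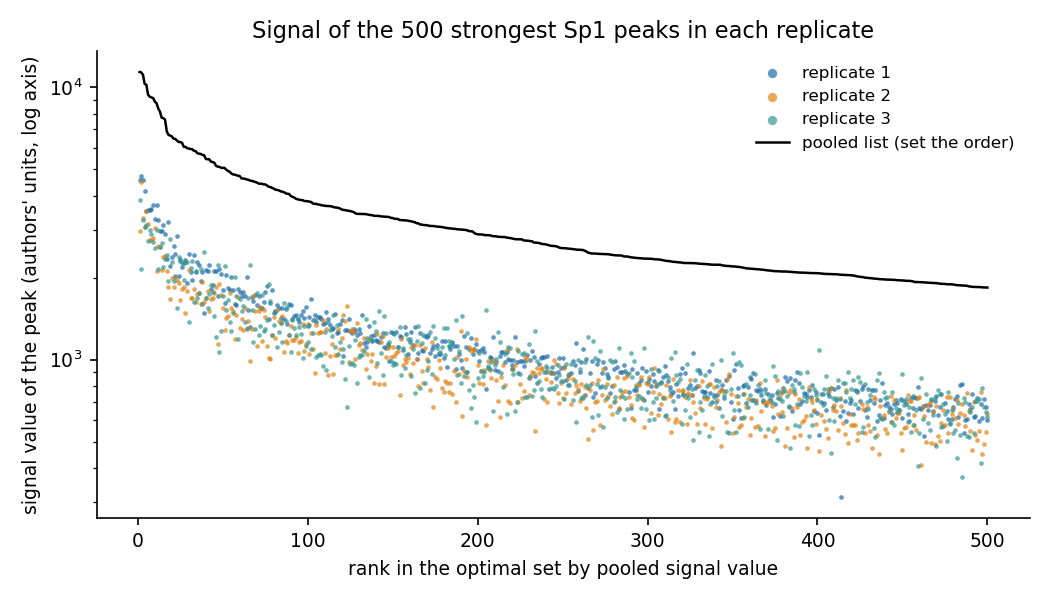
Signal value (authors' units, log axis) of each of the 500 strongest peaks against its rank by pooled signal. Coloured points are the highest peak within 100 bp in each replicate, the black line is the pooled list that set the order, and replicate points run from 4730 at the top to 315 for the lowest.

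Signal in single replicates followed the pooled order with a spread that differed from site to site. The Gapdh2 promoter had 4730, 4469 and 2159 in replicates 1, 2 and 3 (mean 3786 ± 1415, SD, n = 3). Its replicate 3 value was the low one, below 50 percent of either other value. The CG14100 promoter had 4569, 2976 and 3869 (3804 ± 798, SD, n = 3). The ush intron had 3509, 3523 and 3120 (3384 ± 229, SD, n = 3), the closest agreement among the 5 strongest sites. The median coefficient of variation was 15.5% over the 494 members found in all replicates, against 26.4% for other optimal peaks found in all 3 and 16.1% for the next 500.

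The steadiest members were not the strongest ones. An intron of Pli, which encodes the ubiquitin ligase Pellino, had 703, 699 and 711, a coefficient of variation of 0.90%. Next came an intron of ex, an upstream gene of the Hippo pathway, the promoter of CG31808, an intergenic site near the Wnt receptor gene fz, and an intron of wde, with 1.49% to 1.77%. The fz site had 1139, 1102 and 1129.

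At 4 of the 5 sites with the widest spread, replicate 3 was the highest. Lamtor3, a gene of the Ragulator complex, had 779, 578 and 1521 at its promoter. An intergenic site near COX7AL2 had 531, 461 and 1089. So it was at CG8320 (1324, 992 and 2229) and at an intergenic site near kay, the Fos gene (789, 513 and 1214). The fifth, 1 of the members at Bacc, had 315 and 679 in replicates 1 and 2 and no peak within 100 bp in replicate 3. At Hsp83, which encodes the fly Hsp90 chaperone, replicate 3 was instead the lowest, with 1285, 1580 and 669.

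All 6 members missing from a list ranked between 242 and 463. Summits at the promoters of chn, a zinc finger gene (784 and 903), and Bacc had no peak within 100 bp in replicate 3. Nor did a promoter summit of nrv1, a sodium pump subunit gene (526 and 623). Another member at the Bacc promoter, ranked 177, was found in all 3 replicates, with 1049, 1000 and 1058. An intergenic site near Paics, a purine synthesis gene (850 and 541), lacked a peak in replicate 1. The promoter of CG10527 (751 and 680) and an intron of prage (707 and 825) lacked one in replicate 2.

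Members on the X had a lower signal in replicate 3 relative to replicate 1 than members on the autosomal arms. The median log2 ratio of replicate 3 over replicate 1 was -0.36 over 91 members on X, and between -0.08 and -0.02 on 2L, 2R, 3L and 3R. In the other optimal peaks it was -0.04 on X and 0.02 to 0.12 on those arms. Gapdh2, Tlk, which encodes a Tousled-like kinase (2846, 1968 and 1547), and the forkhead gene CHES-1-like (2148, 1892 and 1065) were such X-linked sites. Each of them was highest in replicate 1 and lowest in replicate 3. How many males and females each replicate held is not given in the sources used here. Of the members, 93 lay on X, 103 on 2L, 82 on 2R, 108 on 3L and 114 on 3R. None lay on the small arm 4, which held 11 of the other optimal peaks.

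Promoters held about 1 member in 2. The summit lay within 500 bp of a protein-coding TSS in 259 of the 500 (51.8%), against 44.0% of the other optimal peaks, 44.2% of the next 500, and 16.9% of a background of 19663 weaker pooled summits, none of them within 500 bp of an optimal one. Introns held 164 members (32.8%, against 36.2% of the other peaks), in 138 genes. Intergenic sequence held 63 (12.6%, against 15.9%), and the rest lay in other transcribed sequence (9), 3' UTRs (3) and 5' UTRs (2).

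The excess at promoters did not hold in every replicate. Setting each replicate's 500 against the rest of its strongest peaks, as many in all as the optimal set, gave differences of 3.35, -0.31 and 17.8 percentage points in replicates 1, 2 and 3, a mean of 6.93 ± 9.56 (SD, n = 3; exact sign-flip permutation test, two-sided, p = 0.50). It was 16.0 points for the 250 strongest and 4.02 for the 1000 strongest. With promoters drawn at 200 bp from the TSS the difference was -1.45 points, of the other sign. Intron shares differed by -1.28 ± 4.81 points (SD, n = 3; the same exact test, p = 0.75) and intergenic shares by -4.44 ± 4.50 points (p = 0.25 by the exact test). With 3 replicates the test cannot give a p below 0.25, so each difference is read against the spread between replicates.

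Coding exons away from promoters held no member. That is 0 of 500, which allows a share of up to 0.6%, against 15 of the other 7501 peaks (0.20%) and 2.67% of the background. None of the replicates' 500 lay there either.

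Among promoter members, the summit lay upstream of the TSS far more often. Of the 259, 224 (86.5%) were upstream, against 66.8% of the 3300 promoter summits of the other peaks, 81.4% of those of the next 500 and 55.3% of the background. The replicates' own 500 gave 86.7%, 87.1% and 85.0%, against 65.7%, 61.4% and 74.1% in the rest of their lists. The groups did not overlap, and the difference was 19.2 ± 7.58 percentage points (SD, n = 3; exact sign-flip permutation test, p = 0.25, the smallest it can give). Unlike the promoter share, it kept its size at a promoter distance of 200 bp (19.9 points).

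**Figure D2:**
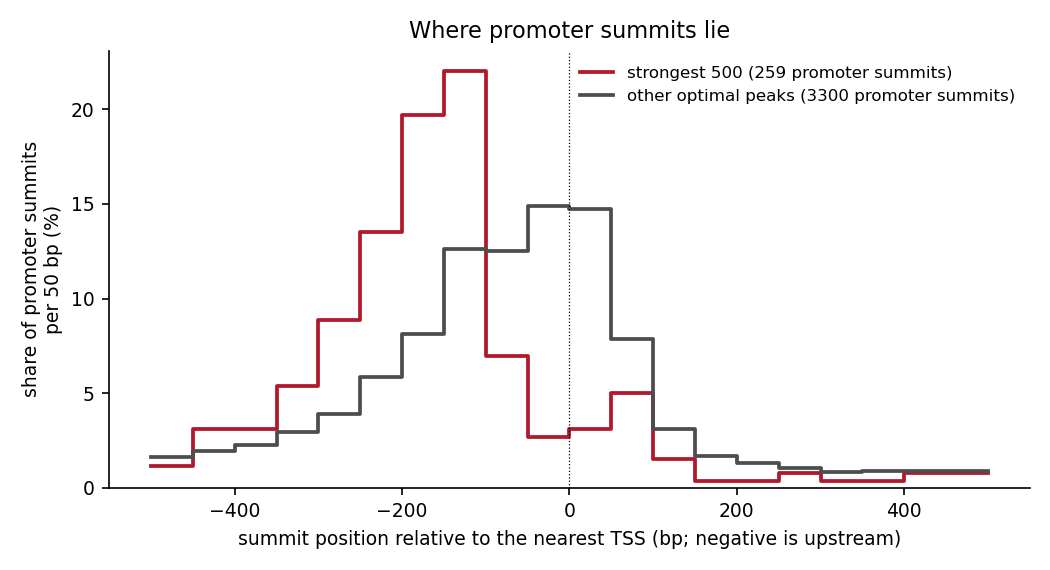
Position of promoter summits relative to the nearest TSS, in bp (negative is upstream), as the share of promoter summits per 50 bp. The strongest 500 (259 summits) peak between 150 and 100 bp upstream with 22.0%, whereas the other optimal peaks (3300 summits) are most frequent around the TSS.

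The typical promoter member sat well clear of the start site. Its median position was 164 bp upstream, with quartiles at -238 and -108 bp, against a median of 59 bp upstream and quartiles at -160 and 27 bp in the other peaks. Between 50 and 250 bp upstream lay 161 of the 259 (62.2%), against 39.5% of the other promoter summits, a difference of 23.6 ± 5.95 points over the replicates (SD, n = 3). Between the TSS and 50 bp upstream of it lay 7 members (2.70%), against 491 of the 3300 other promoter summits (14.9%). At or downstream of the TSS were 35 members, among them PNPase, a mitochondrial RNase gene (79 bp downstream), Chro, which encodes the chromatin protein Chromator (80 bp), and CG11309 (90 bp).

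The part of divergent gene pairs depended on the promoter distance. TSSs of both genes of such a pair lay within 500 bp of 79 promoter members (30.5%), against 29.7% of the other promoter summits, a difference of 1.49 ± 1.17 points over the replicates (SD, n = 3; exact permutation test, p = 0.25). At a distance of 200 bp the shares were 30.8%, against 18.3%, and in the next 500, at 500 bp, the share was 34.4%. At such pairs, 1 peak counts for both genes, as at Art3 with mRpS10 and at CenG1A with mRpS23.

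Peaks of the 500 were wider. Median width was 652 bp, against 374 bp in the other peaks and 563 bp in the next 500. The replicates' own 500 were wider than the rest of their lists by 143, 219 and 86 bp in median width. Width and signal come from the same peak call, so the difference is given with no test.

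G+C at the summit was low. Within 100 bp it averaged 32.4%, against 37.1% in the other peaks and 42.1% in the background. The replicates' own 500 averaged 32.5% ± 0.20 (SD, n = 3), against 37.4% ± 2.18 in the rest of their lists. The difference was -4.91 ± 1.99 percentage points, lower in 3 of 3 replicates (exact sign-flip permutation test, p = 0.25). The next 500, with 32.6%, differed by only -0.20 points, so low G+C extends beyond the 500 themselves.

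The low G+C was the same at promoters and away from them. Promoter members averaged 32.4%, against 39.1% for other promoter summits, and distal members also 32.4%, against 35.6% for other distal summits. With position held to 50 to 250 bp upstream, promoter members averaged 31.9%, against 35.4%, a difference of -3.88 ± 1.37 points over the replicates (SD, n = 3; exact permutation test, p = 0.25). The next 500, with 31.6% there, lay slightly below the 500.

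The dip was narrow, and the flanks on its sides went the other way. Within 50 bp of the summit G+C was 28.3% in the 500, against 35.8% in the other peaks. From 100 to 250 bp on either side it was 45.2%, against 42.8%, a difference of 2.45 ± 0.43 points over the replicates (SD, n = 3), of opposite sign to that at the centre. Averaged over all 250 bp on either side, G+C was 40.1% in the 500 and 40.5% in the other peaks.

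**Figure D3:**
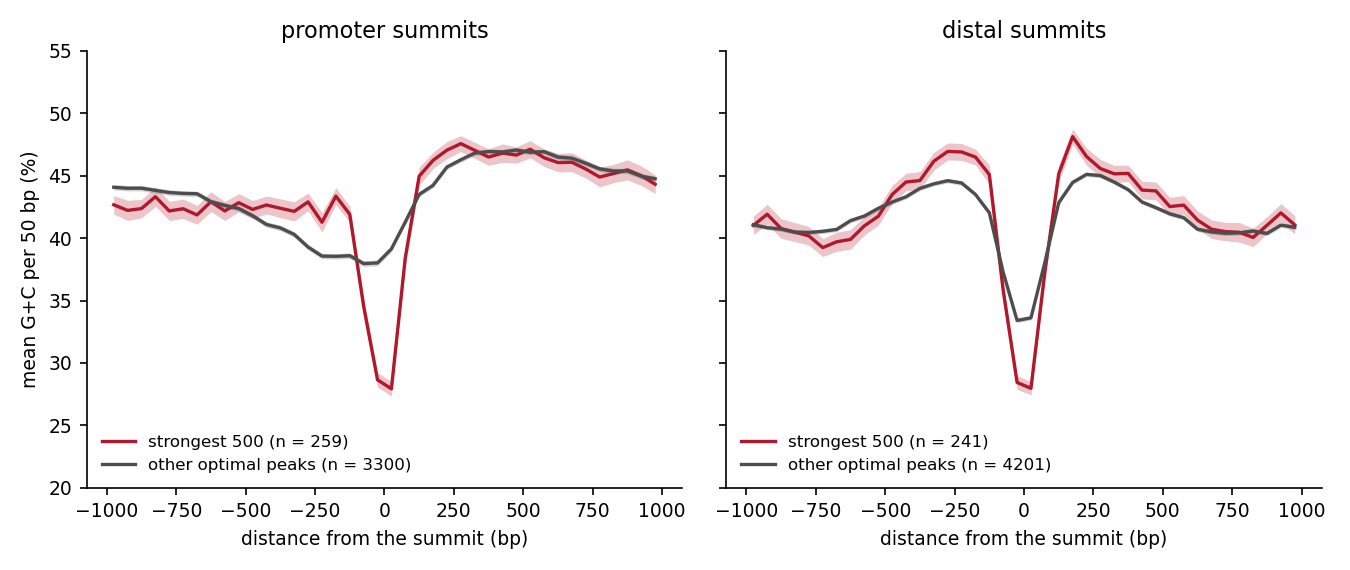
Mean G+C per 50 bp against distance from the summit, at promoter summits (left, in the direction of transcription) and distal summits (right), for the strongest 500 and the other optimal peaks, with bands of 1 standard error over summits. At both kinds of site the 500 fall to about 28% at the summit, and from 100 to 250 bp on either side their values lie above those of the other peaks.

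Distal members had the steepest profile. In the 50 bp downstream of the summit they held 28.0% G+C, against 33.6% in other distal peaks, and between 150 and 200 bp 48.1%, against 44.5%. At promoters the same bins held 27.9% and 46.2% in the 500, against 39.1% and 44.2% in the other peaks.

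**Figure D4:**
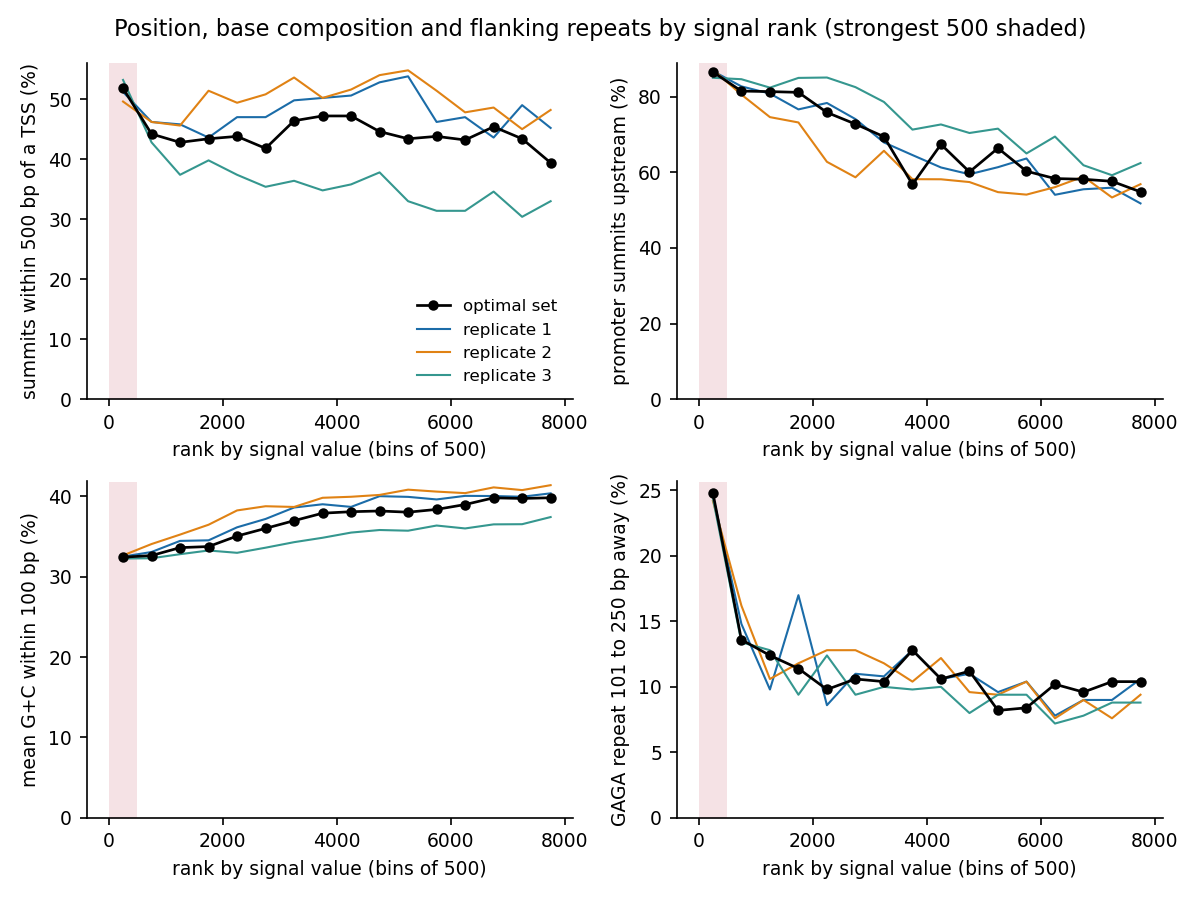
Share of summits within 500 bp of a TSS, share of promoter summits upstream of the TSS, mean G+C within 100 bp and share of sites with a GAGA repeat 100 to 250 bp from the summit, in bins of 500 peaks ordered by signal, for the optimal set (black) and each replicate (coloured). The strongest 500 are shaded. In the optimal set the upstream share is 86.5% in the first bin and 54.8% in the last, and G+C is 32.4% and 39.8% there, whereas the GAGA share is 24.8% in the first bin, 13.6% in the second and lower after that.

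Along the whole ranking, the upstream share and G+C changed by degrees, as the plot in bins of 500 peaks shows. The upstream share was 81.4% in the second bin and 75.8% in the fifth. The share of sites with a GAGA repeat in the flanks took a step after the first bin instead.

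That repeat, GAGAGAG on either strand, was the word whose frequency differed most. GAGA repeats are the binding sites of GAGA factor, encoded by Trl, which opens promoter chromatin in flies. Between 100 and 250 bp from the summit it occurred at 124 members (24.8%), against 10.7% of the other peaks, 13.6% of the next 500 and 6.05% of the background. The replicates' own 500 gave 24.6%, 24.2% and 24.4%, against 10.9%, 10.8% and 9.77% in the rest of their lists, a difference of 13.9 ± 0.63 points (SD, n = 3). The groups were far apart beside that spread. The flanks were examined after the values near the summit had been seen. Shares of words in the flanks, here and below, were not weighted to G+C. Flank G+C was itself higher in the 500 (45.2%, against 42.8%), and its part in these differences was not tested.

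Its excess was present at both kinds of site. Promoter members had it in 26.6%, against 11.7% of other promoter summits, and distal members in 22.8%, against 9.88%. At 19 members it lay on both sides of the summit, with no such count given for the other peaks. The strongest members with it were CG18549, Fkbp14, the gene of a prolyl isomerase of the endoplasmic reticulum, Lk6, a kinase gene of translation control, gish and CG13323, and the word can be read in the window of CG18549 printed above. Within 100 bp of the summit, by contrast, the repeat was found in 4.0% of members, against 5.12% of the other peaks, and the sign of that difference varied between replicates. With the other peaks weighted to the G+C of the 500 it was 2.71% in them, below the 4.0% of the 500. In that weighting the 500 were the higher by 1.28 ± 0.41 points over the replicates (SD, n = 3). The direction near the summit therefore depends on the weighting.

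CA repeats and an E-box were also more frequent in the flanks and rarer near the summit. The repeat CACACACA (either strand) was in the flanks of 16.0% of members, against 11.9% of the other peaks (3.26 ± 0.82 points over the replicates, SD, n = 3), and 14% of the next 500. Within 100 bp of the summit it was in 2.0%, against 5.95%, or 3.22% after weighting to the G+C of the 500. The excess in the flanks lay at distal members (22.0%, against 12.1%), with 10.4% at promoter members, against 11.7%. The E-box CAGCTG, a word bound by basic helix-loop-helix proteins, was in the flanks of 22.0% of members, against 15.9% of the other peaks (5.06 ± 0.96 points, SD, n = 3) and 19.8% of the next 500. Near the summit it was in 5.2%, against 8.15%, or 5.90% after weighting, where the replicates differed in sign. Its excess in the flanks lay at promoters (30.1%, against 17.8%), with 13.3% at distal members, against 14.5%. Whether these shares differ between the classes was not tested.

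Near the summit, 26 words were compared, each on both strands and within 100 bp. In 15 of them (57.7%) all 3 replicates had the sign of the difference in the optimal set, and that difference was larger than the SD of the replicates' differences. Of these 15, 12 were rarer in the 500 and 3 more frequent. With the other peaks weighted to the G+C of the 500, an alternative added after the data were seen, 14 words met the same criterion, 9 rarer and 5 more frequent, so the balance depends on base composition. A word in this count is a string of letters, not a bound site.

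Words of the Sp/KLF family were rare at the strongest sites. The GC box GGGCGG was within 100 bp of the summit in 18 members (3.6%), against 4.35% of the other peaks and 7.65% of the background. The CACCC box CCACACCC was in 0 of 500, which allows a share of up to 0.6%, against 30 of 7501 (0.40%). Base composition moves with both: when the other peaks were weighted to the G+C of the 500, the GC box was in 2.25% of them, below its 3.6% in the 500. In that weighting the 500 were the higher by 0.84 ± 0.13 points over the replicates (SD, n = 3), so the direction for the GC box depends on the weighting. It was in 2.4% of the next 500, also below the 500.

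Promoter words of housekeeping genes were rarer in the 500 than in the other peaks, but hardly rarer than in the next 500. The M1BP motif was found in 1 member, the promoter of the ribosomal protein gene RpL7 (0.2%), against 2.0% of the other peaks, 1.38% of them after weighting to G+C, and 0.4% of the next 500. At promoters alone it was 0.39%, against 4.18%. The DRE was found in 8 members (1.6%), all at promoters, against 2.85%, or 2.46% after weighting, and against 1.8% of the next 500. They ranked from 62 to 464 and included eIF6, CG1827, Shc, Lamtor3, CG11151, eEF1gamma and Alg3. The shorter word CGATA, which is contained in the DRE and is the core of the insulator protein BEAF-32, was in 22.0%, against 26.3%, or 24.4% after weighting.

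**Figure D5:**
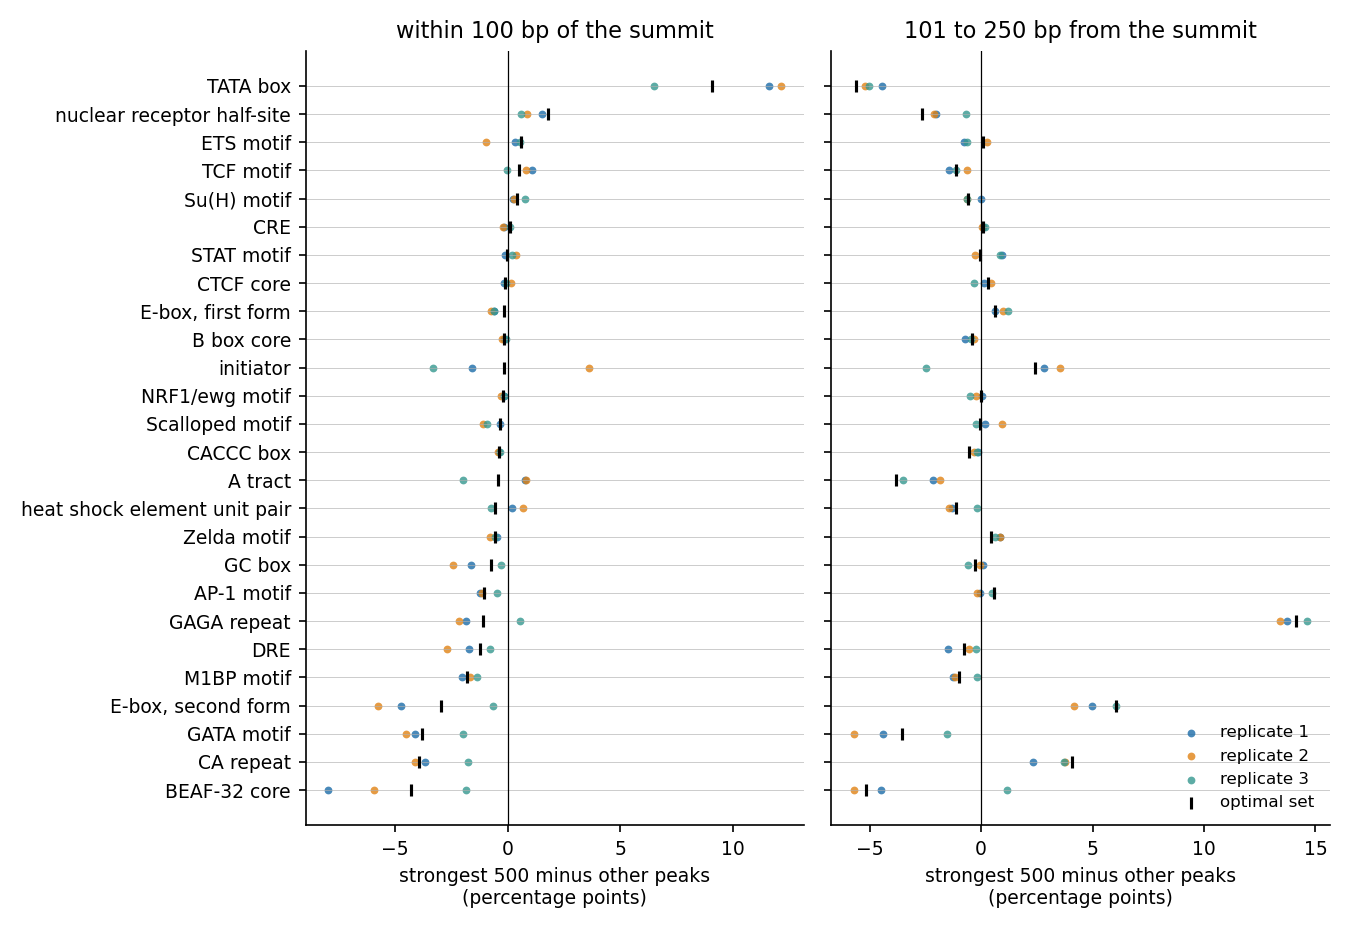
Difference in the share of sites with each of 26 words, strongest 500 minus other peaks, in percentage points, within 100 bp of the summit (left) and 100 to 250 bp from it (right). Coloured points are the replicates' own lists and black bars the optimal set. The first form of the E-box is CACGTG and the second CAGCTG. The TATA box is the word highest above 0 near the summit and the GAGA repeat in the flanks.

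The TATA box word TATAAA was the most frequent gain near the summit. It was in 213 members (42.6%), against 33.6% of the other peaks, a difference of 10.1 ± 3.12 points over the replicates (SD, n = 3). The word is made of A and T, and weighting the other peaks to the G+C of the 500 brought them to 43.6%, above the 500. In the flanks it was the rarer in the 500, with 24.8%, against 30.4%.

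A nuclear receptor word and a GATA word kept their direction after weighting. The half-site AGGTCA was near the summit in 25 members (5.0%), against 3.20% of the other peaks and 3.26% of them weighted. Its direction was not stable, since among the 250 strongest it was in 3.2%, against 3.32% of the rest, and in windows of 250 bp the difference was -0.80 points. It lies in the capitals shown above at Gapdh2. The GATA word GATAAG was in 38 members (7.6%), against 11.4% both before and after weighting. Differences over the replicates were 0.99 ± 0.47 points for AGGTCA and -3.55 ± 1.36 points for GATAAG (SD, n = 3).

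Beyond the listed words, 571 hexamers present in at least 20 of the 211 members on 2L and 3L were ranked there by their frequency relative to the other peaks and then read on the 207 members of 3R and X. Among the 10 lowest, 10 were again below a ratio of 1 there, against 33.5% of all ranked hexamers. ACACAC was in 7.73% of members on 3R and X, against 16.1% of the other peaks, and GCGAAA in 11.1%, against 16.4%. Hexamer shares were not weighted to G+C, which was lower in the 500. Of the 10 highest, 8 were again above 1, against 66.5% of all. The minimum of 20 windows was set on the members themselves, so that a word rarer in the 500 could pass only if it was common elsewhere. The counts at both ends are therefore a description, and nothing is read from their difference.

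Genes with a member at the promoter numbered 343, or 2.46% of 13945 protein-coding genes. Any optimal peak was at the promoter of 27.8%, and 8.86% of those genes had 1 of the 500. A list of genes is read below against these shares, with no test of the list.

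Glycolysis had the highest share of the 30 lists. Of 17 glycolytic enzyme genes, 5 had a member at the promoter (29.4%), out of 9 with any optimal peak. They were Gapdh2, Eno, which encodes enolase (2440, 2142 and 1370 in replicates 1, 2 and 3), Hex-A, the hexokinase gene (2108, 1758 and 1448), Ldh, lactate dehydrogenase (1086, 911 and 1153), and Pgk, phosphoglycerate kinase (747, 466 and 672). At Gapdh2, Eno and Hex-A replicate 3 was the lowest, and at Ldh it was the highest. A related sugar gene, Zw, which encodes glucose-6-phosphate dehydrogenase of the pentose phosphate pathway, had a member in an intron (pooled signal 5059).

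Genes of both ribosomes had members. In the list of 94 genes for cytoplasmic ribosomal proteins, 78 carried an optimal peak at the promoter and 5 a member (5.32%, and 6.41% of the 78), with RpS27 (899, 849 and 952), RpL34b (986, 707 and 730) and RpL7 (694, 673 and 811) among them. The pooled signals of the 5 ran from 2062 to 2650, beside a median of 2567 in the 500. Of 73 mitochondrial ribosomal protein genes, 34 had an optimal peak and 6 a member (8.22%, and 17.6% of the 34). The difference between the lists was not tested. The highest were mRpL41 (3685, 2113 and 3004), mRpS10, shared with Art3 (2975, 2135 and 2673), and mRpS23, shared with CenG1A (2089, 1633 and 2111). Among 52 initiation and elongation factor genes there were 3: eIF4EHP, a cap-binding repressor of translation (2445, 2008 and 2030, in common with CG18428), eIF6 (1777, 1282 and 1570) and eEF1gamma.

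Of 43 genes of folding in the endoplasmic reticulum and of the Golgi, 3 (6.98%) had a member: Ugalt, a nucleotide sugar transporter gene (3540, 2754 and 2998), Fkbp14 (3279, 3034 and 2579) and alphaCOP, a coatomer gene (988, 727 and 1054). Of 35 heat shock and chaperone genes, 2 did (5.71%), Hsp27 (2036, 1910 and 2385) and Hsp83. Of 93 oxidative phosphorylation genes, 2 did (2.15%), ND-ASHI of complex I and Cyt-c-d, the last sharing its peak with CG31808.

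Regulators of ecdysone and chromatin had members in introns as well as at promoters. Counting both, a member lay at the promoter or in the body of 3.51% of all protein-coding genes, a share to which long genes contribute more. It was 33.3% of 24 ecdysone response genes, 20.6% of 34 Polycomb and trithorax group genes and 25% of 20 genes of regulators with a BTB domain and zinc fingers. Trl counts in both the Polycomb and trithorax list and the BTB list.

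In the ecdysone list, the 3 with a promoter member were Eip75B, an early gene that encodes a nuclear receptor (1207, 1188 and 877), Ldh, and the transporter gene E23 (926, 701 and 1404). Members in the body of the gene added Eip74EF, an ETS factor gene, Eip78C, a nuclear receptor gene (1812, 1669 and 1872), Hr4, the insulin-binding protein gene ImpL2 and the coactivator gene tai. These were 8 of 24 genes in all.

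Chromatin genes with a promoter member were ph-p, the proximal polyhomeotic gene of Polycomb repressive complex 1 (3193, 1849 and 1938), brm, the ATPase of the Brahma complex (1863, 1120 and 1402), and E(z), the histone methyltransferase of Polycomb repressive complex 2 (901, 707 and 924). In introns, members lay in Psc, Trl (2129, 1680 and 1689), osa (1490, 1624 and 2486 at its highest summit) and trx. Promoters of Chro (1968, 1683 and 2302) and Cp190, an insulator protein gene (1473, 1040 and 1114), were members, as was that of the BTB regulator lola (698, 750 and 783).

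Signalling genes had members both at promoters and in introns. Counting promoter or body, the share was 19.4% of 31 Notch, 12.9% of 31 Wnt and 12% of 25 EGFR genes. It was 11.1% of 27 Dpp, 10% of 20 Hippo, 6.67% of 15 JAK/STAT and 0% of 16 Hedgehog genes. The same share over all protein-coding genes was 3.51%. Of 31 Notch pathway genes, 4 had a promoter member (12.9%): numb, an inhibitor of Notch (1453, 1179 and 1310), and the target genes E(spl)m7-HLH (985, 1095 and 697), E(spl)mdelta-HLH (764, 812 and 825) and E(spl)m3-HLH. The Enhancer of split genes lie in 1 cluster on 3R and belong to 1 family. Introns of kuz and mam in the Notch list also held members. In the EGFR list, the members were aos, the secreted inhibitor Argos (740, 740 and 779), and spi, the ligand Spitz (730, 474 and 905), with Raf, a kinase of the cascade, holding members in introns. In the Wnt list they were gish, a casein kinase 1 gene (2890, 2403 and 2341), and sgg, the GSK-3 kinase gene (1267, 1026 and 987), with members in introns of arr and nkd. No gene of the Dpp list had a promoter member, but introns of shn (1272, 1272 and 969), tkv and Dad did, as did introns of Diap1 and ex in the Hippo list.

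A further 5 lists had 1 gene each with a promoter member, and 11 had none. The single ones were Vha100-2, REPTOR, bowl, sgg again in the clock list, and cbt, a gene of the same Sp/KLF family as Sp1 (723, 635 and 767). Lists with none, apart from Dpp and Hippo, were proteasome subunits, aminoacyl-tRNA synthetases, Hedgehog, JAK/STAT, cell cycle, spliceosome, chemoreceptor, cuticle protein and cytochrome P450 genes. Proteasome and synthetase genes had optimal peaks at 33.3% and 45.5% of their promoters, and spliceosome genes at 62.2%. These were 16 proteasome, 15 synthetase and 23 spliceosome genes, against the 8.86% of all genes with such a peak that had a member. In lists of this size a share of that order leaves room for few members, and nothing is read from the zeros.

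Among the 50 strongest sites, 27 were at promoters, 17 in introns and 6 outside protein-coding genes. Those from rank 21 on at promoters included Hsp27 (pooled signal 6291), CG13390 (6040), Tcs5, of transfer RNA modification (6038), larp (5967), Eno (5952), Chro (5920), Pal1, of peptide amidation (5836), CenG1A (5828), CG3552 (5702), CG43389 (5640), C1GalTA, of mucin-type glycosylation (5310), Hex-A (5277) and CG5611 (5108). Introns at these ranks included CG9663 (6468), Tlk (6367), CG4496 (6287), Hyls1, a centriole gene (5719), HmgZ, a high mobility group gene (5685), Raf (5436), Eip78C (5327), CHES-1-like (5100), Zw (5059) and LPCAT, of phospholipid remodelling (5056). Outside protein-coding genes, the sites were near CG31668 (6252), CG4004 (5926) and CG9300 (5145). No single function covers these genes.

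Distal members lay closer to the nearest TSS of a protein-coding gene than other distal peaks. The median distance was 2860 bp in the 241 distal members, against 3733 bp in 4201 other distal peaks. In the distal summits of the next 500 it was 3277 bp. The difference was not tested. Farther than 10000 bp were 30 members, against 883 of the 4201 other distal peaks and 45 of the 279 distal summits of the next 500. The 15 strongest began with CG11050 (4576, 3321 and 3253), CG32772 (4147, 3062 and 3061) and ush. The ush summit lay at -1383 bp from the TSS of cbt, in the same interval as the member at the cbt promoter. After CG4004 (3267, 2605 and 2153) came the Lk6 intron (2961, 2590 and 2587), the intergenic site at -5728 bp from the TSS of eEF1gamma (3125, 2376 and 2191) and that near CG13323 (2340, 2119 and 2426). In all of these except ush and CG13323, replicate 1 was the highest.

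Several genes held a group of members. In the body or within 5000 bp of 14 genes lay 3 or more of the 500, and 5 of these genes were on X. That arm held 18.6% of the members and 19.7% of the other optimal peaks. No such count of genes is given for the other peaks, and nothing is read from these numbers. CHES-1-like, a gene of 27048 bp, held 5 in its body, with pooled signals from 1962 to 5100. The corepressor gene sbb, of 79099 bp, had 5 (2232 to 3731), of which 4 were in the body. Raf, ph-p, CG43658, ex and CG12078 had 4 each, and those of CG12078 were all outside its 1021 bp, 3 of them shared with CG43389.

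The 4 at ex stood together at the bottom of the range, with ranks 468, 476, 478 and 500. Pgk, Ptpmeg2, a tyrosine phosphatase gene, shn, ush, tara, CG43389 and Bacc had 3 each. The 3 of Bacc were the same peaks as those of Pgk, which it overlaps on 2L. Long genes can hold more peaks, and length was not allowed for in these counts.

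Few members, and few other peaks, lay near genes of small RNAs. Within 500 bp of a transfer RNA gene lay 1 member (0.2%, against 0.29% of the other peaks), 240 bp upstream of CG8036 and close to tRNA:Tyr-GTA-1-8 (1019, 692 and 875). Within the same distance of a microRNA gene lay 1, in an intron of Tis11 at mir-9377 (681, 557 and 725), also 0.2%, against 0.24%. No member lay near a small nuclear, small nucleolar or ribosomal RNA gene, against 0.040%, 0.27% and 0% of the other peaks, and 0 of 500 allows up to 0.6%.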

How the data were processed

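Peak lists of Sp1-GFP ChIP-seq were used: 1 for each of 3 replicates, 1 for the pool and the optimal set. Per the deposited descriptions, each replicate list came from 1 alignment and a control alignment, and the optimal set from the replicate and pooled lists by the irreproducible discovery rate. Per the labels the assembly is dm6, but neither aligner nor peak caller is named in the sources used here. The deposited signal is the authors' caller's value relative to the control, and the deposited -log10 q value was at its ceiling and not used. Replicate signal at a member was that of the highest peak within 100 bp.

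Genes and 19607 TSSs came from Ensembl release 115 and sequence from RefSeq Release 6, and every peak end lay inside its arm. Promoter summits lay at most 500 bp from the TSS of a protein-coding gene. The rest were placed, by the first class that applied, in UTRs (5' first), with coding exons ahead of 3' UTRs, then introns, other transcribed or intergenic sequence. A summit was named for the gene of the nearest TSS within 500 bp or, failing that, for the gene that contains it, and otherwise for the nearest one. Each replicate's 500 strongest peaks were set against the rest of its strongest, as many in all as the optimal set, and the 3 differences were tested by a two-sided exact sign-flip permutation test, with no test over peaks or genes. The replicates are separate biosamples of 1 line, and depth per library is unknown.

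Members and lists were chosen with earlier results of these data known. Of the listed gene symbols, 14 matched under an older name and 16 did not match. Named genes are those at the 50 strongest and 15 strongest distal members, the 3 highest of each list with 2 or more, the 5 on either side of the threshold, the 5 highest and 5 lowest in variation, members missing from a list, genes with 3 or more members and those near small RNA genes. Other list members in the body of genes, Hsp83 beside the widest spreads and Zw were named after their values were seen. Alternatives changed the number of sites, ranking, replicates, comparison set, promoter distance and window. Weighting the other peaks by G+C in bins of 2 percentage points, and the windows 100 to 250 bp from the summit (the first 100 bases left out), were added after seeing the data. The steps of TSS annotation, G+C, word finding and the sign-flip test were tested on simulated data, and the other steps were not. The software was Python 3.11.15 with matplotlib 3.10.9, scipy 1.17.1, pandas 2.3.3 and numpy 2.4.6.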

Additional observations from a re-analysis of the deposited data

How the results depend on the processing

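The upstream share among promoter summits and the low G+C kept their direction under every alternative run, and the promoter share (-1.45 at a promoter distance of 200 bp) and the intron share did not. Each difference below is the 500 minus the set compared, in percentage points. Leaving out 1 replicate gave 5.46 to 8.66 for promoters, -2.98 to -0.64 for introns, -4.18 to -2.69 for intergenic sites, 19.2 to 20.4 for the upstream share, 0.089 to 3.18 for divergent pairs and -4.87 to -4.68 for G+C. It gave 74.4% to 84% for the share of members in the 500 of the remaining replicates and 330 to 358 genes. With 250 sites the promoter difference was 16.0, the intergenic one -10.4 and 197 genes had a member, and with 1000 sites the promoter difference was 4.02, the divergent one 2.93 and 644 genes had one. Against the next 500, the upstream difference was 5.04, that of divergent pairs -3.89 and that of G+C -0.20. Against the background it was 34.9 for promoters, -17.3 for introns, -11.6 for intergenic sites, 31.2 for upstream, 19.1 for divergent pairs and -9.68 for G+C. At a promoter distance of 200 bp the intron difference was 3.33, the divergent one 12.5, and 214 genes had a member. At 1000 bp the divergent one was -0.46. The G+C difference was -7.47 in windows of 50 bp and -0.42 in windows of 250 bp, where the richer flanks enter the mean.

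Of 338 values for words under these alternatives, 68 had the other sign, 44 of them for words whose difference was within the spread of the replicates or of unlike sign in them, and the cause was not tested. The other 24 follow. With 250 sites the B box core stood at 0.065 and AGGTCA at -0.12. With 1000 sites CACGTG stood at 0.072. Against the next 500, CAGCTG stood at 0.60, and against the background the DRE at 0.51. In windows of 50 bp the AP-1 motif stood at 0.28, the B box core at 0.053 and the Su(H) motif at -0.35. In windows of 250 bp CACGTG stood at 0.35, CAGCTG at 4.76, the Zelda motif at 0.040, the Su(H) motif at -0.59, AGGTCA at -0.80 and the CA repeat at 0.71. Weighted to G+C, CACGTG stood at 0.35 and TATAAA at -0.97. From 100 to 250 bp CACGTG stood at 0.61, CAGCTG at 6.06, the Zelda motif at 0.43, the AP-1 motif at 0.56, TATAAA at -5.62, the Su(H) motif at -0.57, AGGTCA at -2.65 and the CA repeat at 4.09. No paired analysis was possible because the design has 1 group, so that no groups share replicate numbers; the differences tested were already taken within each replicate. With 3 replicates and no read counts, no difference here could pass a threshold by the exact test, and shares that rest on 1 member carry a wide counting error.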

Other observations

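Ranking the optimal peaks by the mean log2 signal of the replicates in place of the pooled signal kept 491 of the 500 members, and leaving out replicate 1, 2 or 3 in that ranking kept 477, 467 or 465. Keeping only the highest summit of each interval kept 489.

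Scaling between lists is not stated, and at most members replicate 1 gave the higher value of a pair. Of the 494 members found in all replicates, 410 were higher in replicate 1 than in replicate 2, 307 higher in replicate 1 than in replicate 3 and 290 higher in replicate 3 than in replicate 2. The median log2 ratio of replicate 2 over replicate 1 was -0.22 in the members and -0.08 in the other optimal peaks. That of replicate 3 over replicate 1 was -0.13 and 0.06, in the same order. At promoter members the median log2 ratio of replicate 3 over replicate 2 was 0.20, and at distal members -0.01. In the other optimal peaks it was -0.04 at promoters and 0.24 at distal summits.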
